A study of Arabidopsis thaliana and Ginkgo biloba and Brassica rapa with 13 samples.

Results

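The nuclear 18S rRNA is the RNA of the small ribosomal subunit, and the deposited table of rRNA methylation listed 6 of its positions under the name Nuclear-18S rRNA. They were C1703, C1713, C1714, C1715, C1716 and C1717, counted from 1 at the 5′ end of the Arabidopsis 18S rRNA, out of 16 listed positions in all rRNAs. They were taken because they belong to this rRNA, whatever their values. Of their 36 combinations of position and species, 20 were percentages, 15 were letters listing a base other than cytosine, and 1 was not determined. The 6 nuclear 18S reference sequences, 1 for each species, were read with them out of 63 rRNA references.

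Total RNA was sampled from 6 wild type species, 5 of them with 1 RNA-seq and 1 RNA bisulfite sequencing (RBS-seq) library each. Arabidopsis thaliana was sampled as seedlings 10 days after germination, in 3 RBS-seq libraries. Triticum durum (durum wheat, Triticum turgidum subsp. durum in the labels, T. durum below) was sampled as flag leaf, the alga Caulerpa taxifolia as fronds and the single-celled alga Nannochloropsis oculata as log phase cells. Brassica rapa and Ginkgo biloba were leaf according to the labels and shoot apex according to the methods of the study. Species and tissue therefore cannot be told apart. The A. thaliana percentage is the authors' mean of its libraries and each other percentage comes from 1 library, so no replicate error could be given for any difference between species. The deposited percentages come without read counts. The study lists total reads for each library, which were not used here because they do not give the coverage of a position, so the depth behind each percentage is unknown.

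In RBS-seq, sodium bisulfite converts unmethylated cytosine to uracil, which is read as thymine, while 5-methylcytosine (m5C) stays cytosine. A cytosine that remains in reads is therefore a candidate m5C, although base paired RNA can also resist conversion. Near its 3′ end the small subunit rRNA forms a long, nearly unbranched hairpin, the penultimate helix, whose base carries the decoding site and whose shaft faces the large subunit. The far tip of that helix varies in sequence among eukaryotes.

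The listed positions lie close to the end of the molecule, with 91 bases after C1717 in A. thaliana and 90 bases in T. durum. In the TAIR10.1 assembly of A. thaliana they span chr2:5408-5422 on the plus strand, inside the 18S rRNA gene AT2G01010 (chr2:3706-5513), whose sequence equals the deposited reference. The same stretch recurs at chr3:14199379-14199393 on the plus strand in the 18S rRNA gene AT3G41768, which differs from the reference elsewhere. Both genes are non-coding, and reads of these copies cannot be assigned to 1 of them over this stretch.

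The aligned stretches below begin 13 bases before C1703 and end 8 bases after C1717, so that the hairpin can be compared between species. Capitals mark listed positions at which the species has a cytosine, and T stands for uracil.
T. durum: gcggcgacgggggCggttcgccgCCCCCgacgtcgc
A. thaliana: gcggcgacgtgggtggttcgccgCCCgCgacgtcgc
G. biloba: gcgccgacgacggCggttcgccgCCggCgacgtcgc
C. taxifolia: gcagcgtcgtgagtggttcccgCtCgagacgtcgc
The A. thaliana line corresponds to chr2:5395-5430. T. durum has the capitals as 1 cytosine before the loop and a run of 5 after it.

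T. durum had all 6 cytosines, and all 6 were at or above the 20% at which the study called a site. C1703 was 52%. C1713, C1714, C1715 and C1716 were 53% each. C1717 was 52%. The listed values thus differed by no more than 1 percentage point, and the levels before rounding could differ by more. Rounding was to 1 percentage point here: all 52 percentages at or above 20% were whole numbers, against 4 of the 22 below 20%. A position entered the table because some species was called there, and T. durum was called at 14 of the 15 positions where it had a percentage (93.3%), so the count of 6 out of 6 is no result of its own.

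The level at these sites was lower than at any other called site of T. durum. Its other 8 called sites ranged from 75% to 92% with a median of 88.5%, against a median of 53% in the cluster, a difference of -35.5 percentage points. The nuclear 25S rRNA sites of the large subunit were 82% and 91%. The only other T. durum value below the cluster was 0.126%, at mitochondrial C1566, which was not called. Sites of 1 library are not replicates, and these levels are descriptions.

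None of the other 5 species was called at any of these positions. Of their 59 percentages over all rRNAs, 38 (64.4%) were called, and of the 14 in the 18S rRNA none was. A. thaliana had a cytosine at 4 positions, with 0.218% at C1713, 0.145% at C1714, 0.127% at C1715 and 0.300% at C1717. G. biloba also had 4, with 0.189% at C1703, 0.143% at C1713, 0.105% at C1714 and 0.214% at C1717. Both species therefore had most of the cytosines that were at 52% or 53% in T. durum, at levels of 0.300% or less.

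Levels in the remaining species were as low with 1 exception. B. rapa was listed at 0.166% at C1714 and 0.158% at C1717. N. oculata had the lowest levels, 0.0473% at C1713 and 0.0517% at C1717. C. taxifolia had 0.140% at C1715 but 3.30% at C1713, the only one of the 14 values above 1%. The other 13 had a median of 0.145%. In the plot of listed percentages the T. durum points stand apart from all others at every site.

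**Figure D1:**
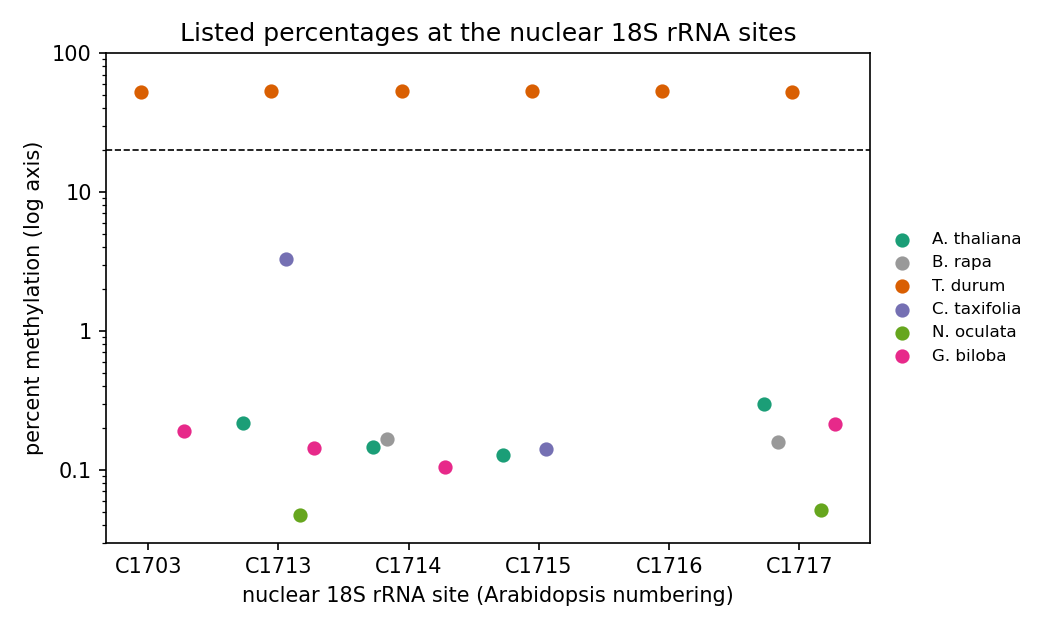
Percent methylation (log axis) at the 6 nuclear 18S rRNA positions, 1 point for each species with a cytosine percentage; the dashed line is the 20% threshold. The T. durum points lie at 52% and 53%, the C. taxifolia point at C1713 lies at 3.30%, and the other 13 points lie at or below 0.300%.

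The base at these positions varied between species. C1716 was a cytosine in T. durum alone and a guanine in A. thaliana, B. rapa, C. taxifolia and G. biloba. C1703 was a cytosine with a percentage in 2 species, T. durum and G. biloba, and a thymine in A. thaliana, B. rapa and C. taxifolia. By the multiple alignment 4 species held a cytosine there, since the sequences given for B. rapa and N. oculata also had one. The B. rapa sequence was that given for G. biloba, and the N. oculata cytosine is the one listed at C1713. The pairwise alignments gave 3 species, with a gap in N. oculata. C1713 and C1717 were listed as cytosines in 5 species each, C1714 in 4 and C1715 in 3. Of the 15 positions from C1703 to C1717, 12 differed among the references of A. thaliana, T. durum, C. taxifolia, N. oculata and G. biloba. Of all 1808 positions of the 18S rRNA 32.4% did, with missing bases counted as differences. In this alignment N. oculata lacked 10 of the 15 bases as 1 stretch, and those 10 positions count as differing whatever the other references hold. C1714, C1715 and C1716 were among them and also differed between the other references. Among A. thaliana, T. durum and G. biloba alone, 3 of the 15 differed, against 8.30% of all positions.

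T. durum differed from A. thaliana at 3 of the 22 bases of the apical hairpin, by T1699G, T1703C and G1716C (the Arabidopsis base first, then its position, then the T. durum base). At T1703C and G1716C the T. durum base is a cytosine that is among the called sites. Which of the bases is the older was not determined. Over the whole 18S rRNA T. durum differed from A. thaliana by 96 substitutions, 5.31% of positions. At 40 of them T. durum had a cytosine and A. thaliana another base, and at 19 the reverse held. G. biloba carried T1703C as well, along with T1699A, G1700C and C1715G. C. taxifolia carried G1701A, C1714T and C1717A. Thus 4 of the 6 T. durum cytosines were shared with A. thaliana, and the cytosine at C1703 was shared with G. biloba.

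Identity to A. thaliana over the 15 bases was 86.7% in T. durum and in G. biloba, where the median over all 15-base windows of the 18S rRNA was 100%. For T. durum 19.6% of windows were as low or lower, and for G. biloba 21.4%. C. taxifolia was at 80%, against a median of 86.7%, with 44.6% of windows as low or lower. N. oculata was at 26.7%, against a median of 93.3%, and 3.23% of its windows were as low or lower, although a pairwise alignment gave 53.3%. By the multiple alignment the stretch was therefore among the most divergent of the molecule in N. oculata, and was not so in the other species. The windows overlap, and the shares only rank this one.

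**Figure D2:**
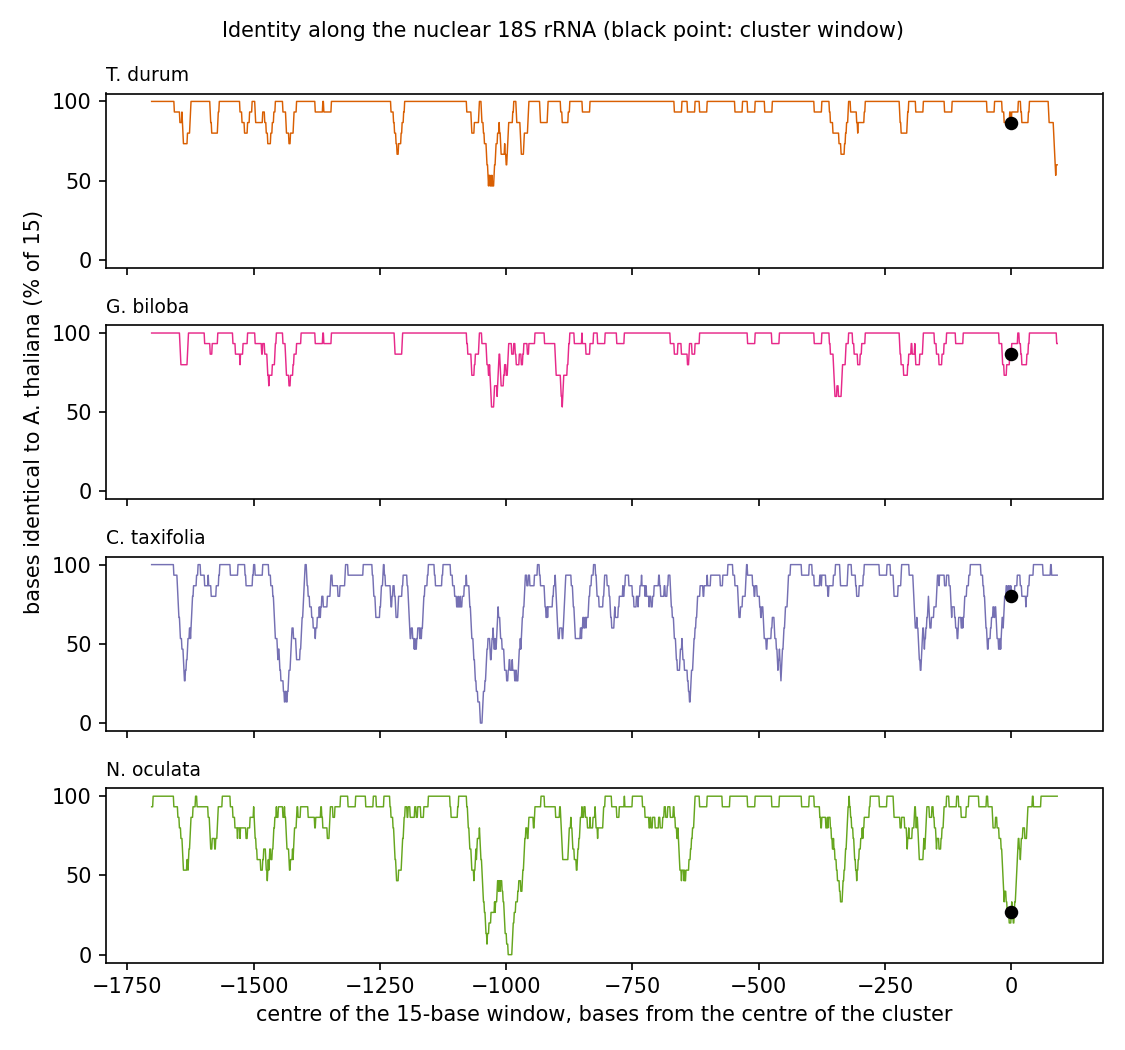
Percent of bases identical to A. thaliana in windows of 15 bases along the nuclear 18S rRNA of 4 species, by the distance of the window's centre from the centre of the cluster; the black point is the cluster window. It lies at 86.7% in T. durum and G. biloba, at 80% in C. taxifolia and at 26.7% in N. oculata, and each species has windows that are lower.

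Length varied here mainly in N. oculata. The reference sequences held 1808 bases in A. thaliana, 1810 in T. durum, 1811 in G. biloba, 1762 in C. taxifolia and 1765 in N. oculata. N. oculata lacked 45 of the Arabidopsis bases in 11 stretches. Of these bases 10, or 22.2%, were missing as 1 stretch inside the 22-base hairpin, and only 1 other stretch was longer. C. taxifolia lacked 49 bases, of which 1 fell in the hairpin. T. durum and G. biloba lacked none there.

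The letters of the table and the reference sequences were compared in the same alignment. The table's base equalled the aligned base at 6 of 6 positions in A. thaliana, T. durum, C. taxifolia and G. biloba. In N. oculata it did so at 1 of 5, since the aligner left a gap at C1713 to C1716. The 5 listed bases from C1713 to C1717 occur in that order at 1 place in the N. oculata reference, its own positions 1670 to 1674, and C1717 falls on its position 1674 in the alignment too. The table and the alignment thus differ in where the missing bases were put, and C1713 of the table is the cytosine that the alignment placed at C1703.

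The B. rapa sequence could not be used as its own. The deposited B. rapa 18S sequence was identical to that of G. biloba over all 1811 bases, while the table gives B. rapa a length of 1806. The letters listed for B. rapa equalled that sequence at 3 of 6 positions and differed at C1703, C1713 and C1715, each listed as thymine. They equalled the letters or cytosines of A. thaliana at 4 of 6. The B. rapa levels therefore rest on a reference that was not established here, and no fold was made for it. The deposited table gives the source of every reference of this rRNA other than that of A. thaliana as guided by the Arabidopsis gene.

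The predicted fold placed the T. durum cluster in the tip of the penultimate helix. In the fold of the whole 18S rRNA at 37 C the helix had 41 pairs and no branch over 111 bases, ending 45 bases before the 3′ end. The capitals again mark the called cytosines.
T. durum helix: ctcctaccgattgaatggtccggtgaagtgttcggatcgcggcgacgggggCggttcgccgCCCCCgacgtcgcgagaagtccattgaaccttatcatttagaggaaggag
A. thaliana also had 41 pairs over 111 bases. G. biloba had 37 pairs over 107 bases. In C. taxifolia the unbranched part held 12 pairs over 29 bases and in N. oculata 9 pairs over 26 bases at 37 C. At 70 C it held 23 pairs over 67 bases in C. taxifolia, and the N. oculata fold had no hairpin in this stretch, so both lengths depend on the temperature of the fold. T. durum and A. thaliana had 40 pairs over 111 bases at 70 C, and G. biloba 38 over 111.

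The apical stem of T. durum was 9 uninterrupted pairs closed by a loop of 4 bases, and all 9 were guanine-cytosine pairs. The same 9 facing positions in A. thaliana held 7 guanine-cytosine and 2 guanine-uracil pairs. The substitutions T1699G and G1716C in T. durum exchange 1 of these guanine-uracil pairs for guanine-cytosine, and T1703C exchanges the other. G. biloba had 8 guanine-cytosine pairs and an adenine facing a guanine where T1699A falls. Its G1700C and C1715G are on facing bases and keep the pair with the bases swapped. C. taxifolia had 5 guanine-cytosine, 1 adenine-uracil and 2 guanine-uracil pairs, and its C1717A left 1 position without a pair.

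**Figure D3:**
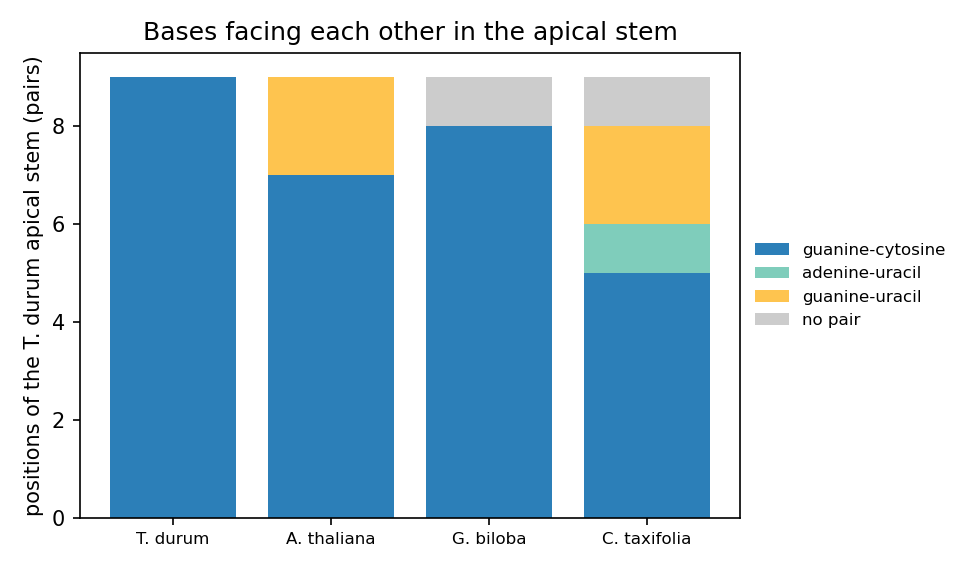
Kinds of base pairs at the 9 facing positions of the T. durum apical stem, by the bases aligned to them in 4 species (stacked bars, number of positions). All 9 positions were guanine-cytosine in T. durum, against 7 in A. thaliana, 8 in G. biloba and 5 in C. taxifolia.

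The called cytosines occupied consecutive pairs in the middle of that stem. Counting pairs from the base of the stem towards the loop, C1717, C1716, C1715, C1714 and C1713 were in pairs 2 to 6 on the 3′ arm and C1703 was in pair 7 on the 5′ arm. The stem held 3 more cytosines that were not listed as called. C1697 was in pair 1 at the base, and C1711 and C1710 were in pairs 8 and 9 next to the loop. C1708, in the loop, was also not listed. The called cytosines were therefore those of pairs 2 to 7, on whichever arm holds the cytosine. The uncalled ones were those of pair 1 and of pairs 8 and 9. Levels for the uncalled cytosines were not given, only that they were not called. This order is a description of 9 cytosines from 1 library.

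Predicted pairing ranked the stem cytosines in the same way at 70 C. The called ones had pairing probabilities from 0.997 to 0.9998. The uncalled ones had 0.909 at C1697, 0.979 at C1711 and 0.933 at C1710, all lower. At 37 C the called cytosines had at least 0.9999, while the uncalled ones ranged from 0.987 to 0.9997. With local folding the groups overlapped, at 0.981 to 0.9999 for the called and 0.963 to 0.991 for the uncalled cytosines. Among all 413 cytosines of the T. durum 18S rRNA, 5 of the called ones took ranks 1 to 5 by pairing probability at both 37 C and 70 C, and C1717 took rank 11 at 37 C and rank 12 at 70 C. Locally, their ranks ran from 2 to 33.

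**Figure D4:**
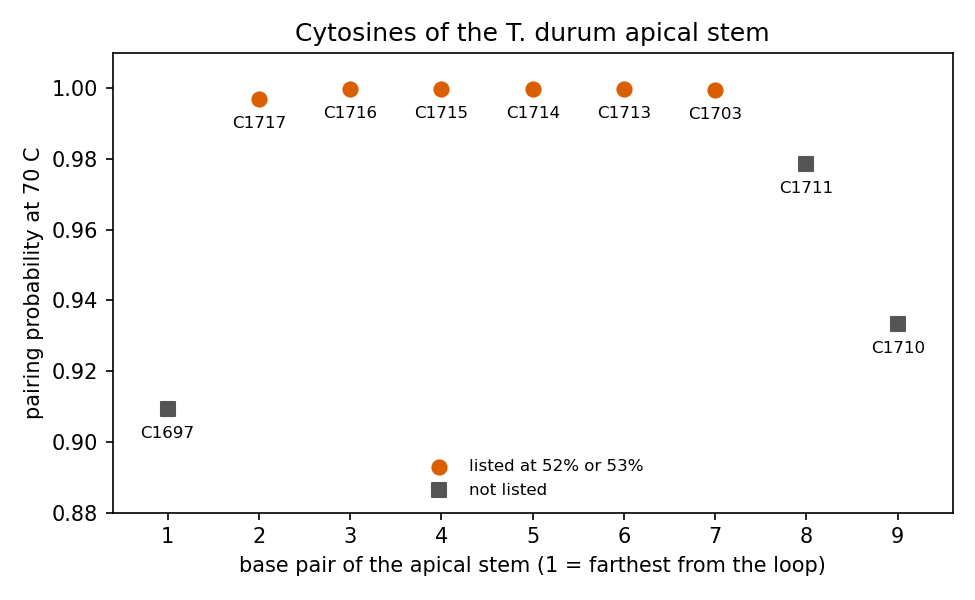
Pairing probability at 70 C (vertical axis from 0.88) of the 9 cytosines of the T. durum apical stem, by pair counted from the base of the stem. The 6 called cytosines fill pairs 2 to 7 between 0.997 and 0.9998, and the 3 uncalled ones, at pairs 1, 8 and 9, lie at 0.979 or below.

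High predicted pairing was not particular to the called cytosines. In T. durum 89 of the 413 cytosines reached 0.99 at 37 C, of which 83 were not listed. At 70 C it was 22, of which 16 were not listed. From 13 bases before C1703 to 13 bases after C1717, 9 cytosines were not listed, and 7 of them reached 0.99 at 37 C and 4 at 70 C. The part of pairing in the level of the cluster was not tested.

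The same positions were as well paired in A. thaliana. Its 4 cytosines had a mean pairing probability of 1.00 at 37 C and 0.998 at 70 C, with levels of at most 0.300%. The 2 of C. taxifolia averaged 1.00 and 0.997. Those of G. biloba averaged 0.979 and 0.886. In N. oculata, the cytosine at its position 1670 had a probability of 0.155 and that at 1674 of 0.974 at 37 C. In the pairing profiles the T. durum and A. thaliana lines have nearly the same shape around the loop, and that of G. biloba is broken by unpaired positions in both arms.

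**Figure D5:**
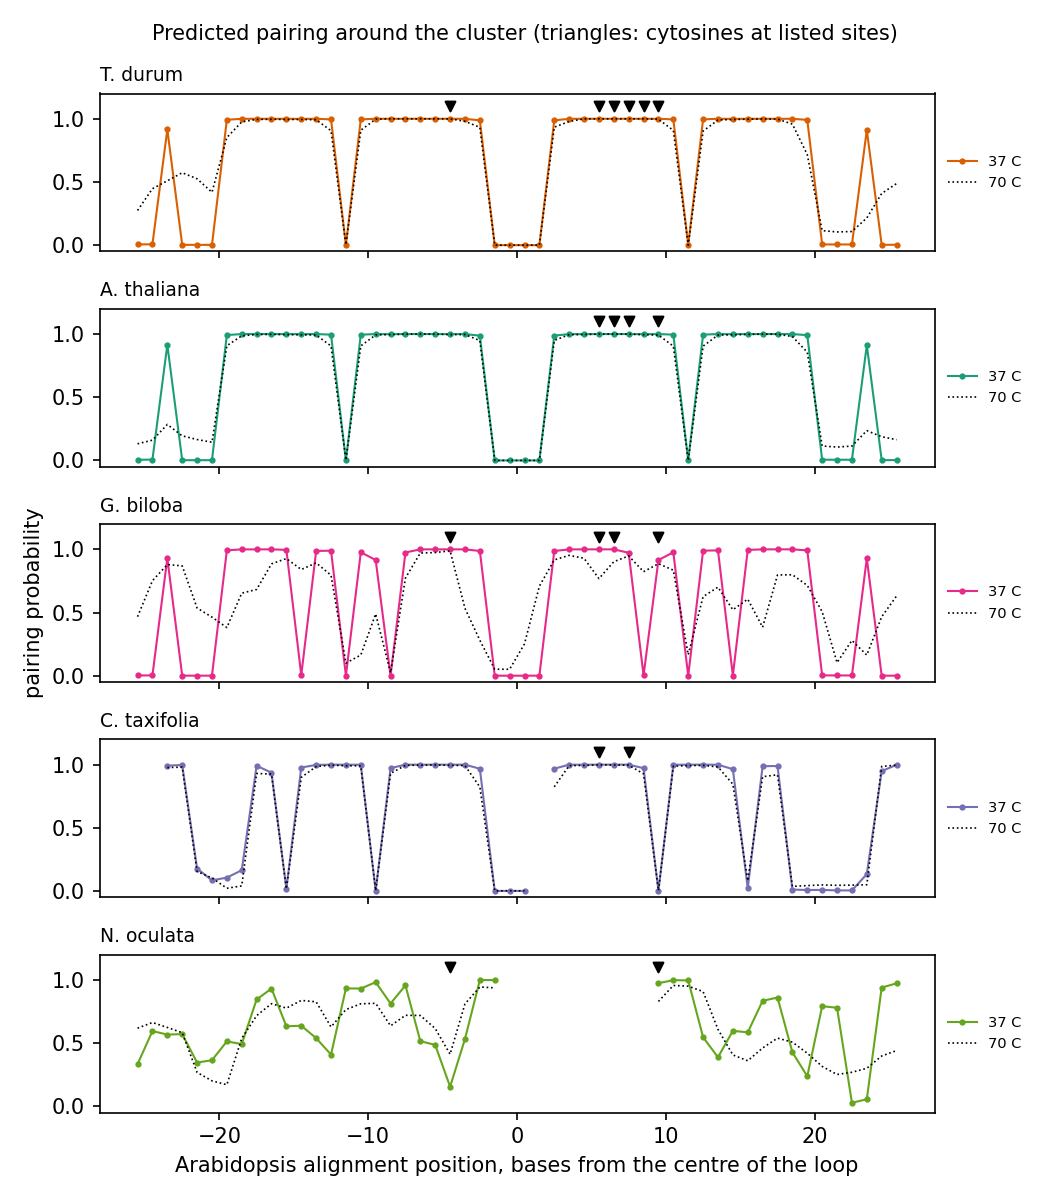
Predicted pairing probability by alignment position, in bases from the centre of the apical loop, for the 18S rRNA of 5 species at 37 C (solid line with points) and 70 C (dotted line); lines are broken where a species has no base. Triangles mark cytosines at listed positions, and those cytosines of T. durum and A. thaliana have probabilities of at least 0.992 at both temperatures.

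The isolated hairpin was most stable in T. durum. Over the 22 aligned bases its predicted energy was -20.2 kcal per mol at 37 C, against -15.6 in A. thaliana, -12.2 in G. biloba, -8.0 in C. taxifolia and -3.0 in N. oculata. C. taxifolia has 21 bases in this stretch and N. oculata 12, so their energies are of shorter hairpins. At 70 C the energies were -11.1, -7.69, -5.43, -2.60 and 0 kcal per mol in the same order of species.

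The stem also stood out by its length of guanine-cytosine pairs. Its 9 consecutive pairs were the longest such stem of the T. durum 18S rRNA at both temperatures. The longest in the other 18S folds at 37 C had 5 pairs in A. thaliana and N. oculata, 6 in C. taxifolia and 7 in G. biloba, all outside the cluster. Among the other large rRNAs of T. durum, the nuclear 25S had 5 stems of 7 pairs, the chloroplast 23S had 1, and the chloroplast 16S and both mitochondrial rRNAs reached 5 pairs. None of these other rRNAs had a stem of 9.

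The T. durum window was rich in cytosine, in part by its choice. The window runs from the first to the last called cytosine, so 6 cytosines were in it from the outset and its rank is only a description. It held 9 cytosines in 15 bases, the highest number in any window of its 18S rRNA, where the median was 3 and 13 of 1796 windows had as many. A. thaliana and G. biloba held 7 each. Guanine and cytosine together made 86.7% of the T. durum window, against a median of 53.3%.

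The run of 5 cytosines at C1713 to C1717 was the only run of that length in the T. durum 18S rRNA, and no longer run occurred in any reference of any species. The 18S rRNA of N. oculata held 1 run of 5 elsewhere, and the other 18S references held none. In its large rRNAs T. durum had 9 further runs of 5, with 3 each in the nuclear 25S, chloroplast 23S and mitochondrial 26S rRNAs, and none of their cytosines was listed as called. In 2 of these runs all 5 cytosines reached a probability of 0.99 at 37 C, with means of 1.00 in the 25S and 0.995 in the 23S rRNA. Levels for these cytosines were not given, only that they were not called.

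The other called sites of T. durum were not in such places. Their 8 cytosines had predicted pairing probabilities from 0.111 to 0.915, with a median of 0.594 and none at 0.99. The nearest other called sites were 37 bases apart, while those of the cluster were 1 base apart in the run and 10 bases apart across the loop. The cluster therefore differed from the other called sites in level, spacing and predicted pairing together. With 6 neighbouring positions of 1 hairpin against 8 scattered ones, no test was made.

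Stretches of 31 bases across the cluster matched no other T. durum reference, like the rest of its 18S rRNA. The RBS-seq reads were aligned to converted references. After every cytosine was turned into thymine, none of the 45 windows of 31 bases that cover a called site occurred in another T. durum rRNA, as was the case for all 1780 such windows of the T. durum 18S rRNA, and none was repeated in its 18S rRNA. Only 1 of the 45 occurred in a reference of another species, whereas 61.01% of all 31-base windows of the T. durum 18S rRNA did. Before conversion none of the 45 occurred in any other reference.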

How the data were processed

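The authors aligned RBS-seq reads to rRNA references with every cytosine turned into thymine, using CLC Genomics Workbench (version not given in the sources used here). The deposited percent methylation is mapped cytosines over mapped cytosines plus thymines, with no other normalization, and sites were called at 20% after a minimum coverage. A spike-in RNA without m5C was the conversion control. Percentages were used as deposited, and the depth at each position is unknown. The submitters' notes name TAIR 10, and coordinates here are those of TAIR10.1, from an exact match of 41 bases.

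References were aligned with MAFFT 7.526 (local pairs, 100 iterations) or pairwise with Biopython 1.88 (match 2, mismatch -3, gap opening -5, gap extension -2, free end gaps). ViennaRNA 2.7.2 gave minimum-energy folds and pairing probabilities at 37, 50 and 70 C, and local folding used windows of 150 and spans of 100 bases. The identity and stem calculations were tested on short made sequences, where 70 of 70 planted results were recovered. Those sequences had no long gaps, so they do not test the alignment of N. oculata or the fold of a whole rRNA. All listed positions and references of the nuclear 18S rRNA are named. The members and lists were chosen with earlier results of these data known.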

Additional observations from a re-analysis of the deposited data

Results flagged for a closer look

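At positions where at least 4 species had a percentage, the value farthest from the others, whether highest or lowest, was compared with the range of the group. T. durum lay far above the others at C1713 (53%), at C1714 (53%) and at C1717 (52%). These gaps follow from the listing, since a position entered the table because a species was called there and here that was T. durum alone. With T. durum left out, C. taxifolia lay far above the remaining species at C1713, at 3.30%. Among replicates, chance gives such a gap in about 1 in 20 groups, but species are not replicates of each other, and the gaps are descriptions that test nothing. C1703, C1715 and C1716 had too few percentages to be examined.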

How the results depend on the processing

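Of 68 alternatives, 11 of them chosen after seeing the data, 52 changed nothing by the limits set. No count of called sites changed at 10% or 40% in place of 20%. The table alone gave 2 species a cytosine at C1703, against 4 by the multiple alignment. Those 4 include the B. rapa sequence, identical to that of G. biloba, and an N. oculata cytosine listed at C1713. In N. oculata, identity over the cluster was 52.5% in windows of 61 bases and 53.3% by pairwise alignment, against 26.7%. The mean pairing probability of the 6 called T. durum cytosines was 1.00 at 37 C and 0.887 with all 9 cytosines of the window. Those 9 include C1708 of the loop, at 2.07e-07, and leave out C1697 of the stem, so they are not the 9 stem cytosines. T. durum cytosines at a pairing probability of 0.99 numbered 89, against 153 at 0.95 and 22 at 70 C. Runs of cytosines over all references rose from 32 to 202 with 4 in place of 5 as the least length. Both totals include the references given for B. rapa, whose counts of 6 and 37 equalled those of G. biloba. No paired analysis was possible because only A. thaliana has replicate libraries and they are given as a mean. One library for each other species, unknown depth at each position and references guided by the Arabidopsis gene limit every value here.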
